A study of Mus musculus with 8 samples.

Results

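The collagen genes, the small leucine-rich proteoglycans and a set of genes of meningeal fibroblasts were followed through 8 mRNA libraries of mouse central amygdala. Members were taken by gene symbol: each gene named as a collagen chain (Col, a number, a, a number) other than 1 left out by the rule, together with Dcn, Lum, Ogn, Bgn, Fmod, Islr, Mgp, Slc6a13 and Slc22a6. This gave 52 of the 18983 genes in the count table, 43 collagens and 9 others. The filter on low counts left 51 of the 52 in the test, and Col10a1, a collagen of growing cartilage, was not tested, with 2 to 8 counts per library.

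The mice were of strain 129SV and aged 7 months, and the diets were high fat (4 libraries) and normal chow (4 libraries), each given for 20 weeks. Libraries carry the numbers 1, 2, 5 and 8 of their titles in both diets. Nothing in the labels says that a library is 1 animal, so the p-values measure the spread between these libraries, which may be technical. Totals ran from 17451111 to 19562368 counts per library. In tissue pieces such as these, fewer cells of a type and less RNA per cell cannot be told apart. All 6 of the 6 central amygdala neuron markers, Prkcd, Sst, Crh, Tac2, Nts and Pdyn, had counts in each library. Their summed levels were 353 to 514 CPM (counts scaled to the library total) with high fat diet and 335 to 698 CPM with chow. Sst alone gave 327 of the 353 CPM in high fat library 1 and 280 of the 335 CPM in chow library 2. Over the 8 libraries the other markers ranged more widely than the sum. Prkcd was at 10.97 to 273 CPM, Tac2 at 4.702 to 75.2 CPM and Pdyn at 3.53 to 106 CPM. Nts was at 3.86 to 28.9 CPM and Crh at 2.29 to 16.4 CPM. The sum thus does not show that the share of central amygdala was even between libraries. Libraries of the same diet also differed in other markers. The 8 markers of striatal projection neurons summed to 204 to 891 CPM with high fat diet and 301 to 2960 CPM with chow. The 5 oligodendrocyte markers summed to 2526 to 5605 CPM and 1967 to 12403 CPM. The 5 thalamic neuron markers summed to 23.8 to 73.3 CPM and 39.1 to 278 CPM, highest in chow library 5, where Prkcd was highest too. In the diet comparison below, the 6 pallial excitatory markers all had higher means with high fat diet. The 8 striatal, 5 thalamic, 3 GABAergic, 5 oligodendrocyte, 5 ependymal and 5 microglia markers were all lower. The other marker lists outside the members had both directions, and 0 markers passed. Tissue make-up thus leaned with diet, and its part in the folds of the members was not tested.

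Collagens are secreted or membrane proteins whose chains wind into a triple helix. The fibrillar types form the cables of connective tissue, collagen IV forms the sheet of basement membranes around blood vessels and under the pia, and fibril-associated types decorate the cables. Small leucine-rich proteoglycans such as decorin and lumican bind collagen fibrils and set their spacing. In the adult brain this matrix is sparse in the parenchyma and dense in the meninges and vessel walls, where fibroblasts make it, although some collagens are also made by neurons.

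Promoter windows of RefSeq (build GRCm38.p6, 250 bases before to 50 bases after a start) were at hand for 40 of the 52 members, in 45 windows. The windows below are shown for members that the results return to: both chains of the main basement membrane collagen, which start next to each other, Col8a2, which differed 36.8-fold between libraries, and Ogn and Slc22a6, which were highest in the same 2 libraries. Capitals mark 3 motifs on either strand: the TATA box TATAAA, the CCAAT box CCAAT and the GC box GGGCGG. In Ogn the 2 TATA matches overlap, in Slc22a6 1 pair of CCAAT matches overlaps, and in Col8a2 1 pair of GC boxes overlaps.
Col4a1 (chr8:11312777-11313076, minus strand): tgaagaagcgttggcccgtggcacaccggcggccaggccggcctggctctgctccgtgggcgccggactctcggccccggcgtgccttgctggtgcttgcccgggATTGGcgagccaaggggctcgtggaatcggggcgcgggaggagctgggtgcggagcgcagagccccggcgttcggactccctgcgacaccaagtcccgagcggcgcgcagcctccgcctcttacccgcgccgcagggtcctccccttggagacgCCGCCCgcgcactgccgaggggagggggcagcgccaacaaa
Col4a2 (chr8:11312555-11312854, plus strand): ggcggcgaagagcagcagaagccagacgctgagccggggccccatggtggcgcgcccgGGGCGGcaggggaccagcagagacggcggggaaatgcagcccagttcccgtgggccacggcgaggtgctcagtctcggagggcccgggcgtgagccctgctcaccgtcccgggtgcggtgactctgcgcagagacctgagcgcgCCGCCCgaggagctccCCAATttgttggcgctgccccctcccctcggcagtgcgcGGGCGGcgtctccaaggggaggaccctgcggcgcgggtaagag
Col8a2 (chr4:126286544-126286843, plus strand): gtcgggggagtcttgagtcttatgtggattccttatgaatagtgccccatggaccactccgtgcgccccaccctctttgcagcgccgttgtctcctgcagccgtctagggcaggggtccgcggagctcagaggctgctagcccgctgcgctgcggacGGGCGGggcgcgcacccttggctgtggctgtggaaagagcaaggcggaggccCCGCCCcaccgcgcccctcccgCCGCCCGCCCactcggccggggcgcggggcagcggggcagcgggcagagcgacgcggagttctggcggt
Ogn (chr13:49607765-49608064, plus strand): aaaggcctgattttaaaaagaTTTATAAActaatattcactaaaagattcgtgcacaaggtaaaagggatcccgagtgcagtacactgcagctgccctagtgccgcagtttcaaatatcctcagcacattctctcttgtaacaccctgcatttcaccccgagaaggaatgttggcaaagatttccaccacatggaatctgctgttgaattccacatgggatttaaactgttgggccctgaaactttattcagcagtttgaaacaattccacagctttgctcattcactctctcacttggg
Slc22a6 (chr19:8617746-8618045, plus strand): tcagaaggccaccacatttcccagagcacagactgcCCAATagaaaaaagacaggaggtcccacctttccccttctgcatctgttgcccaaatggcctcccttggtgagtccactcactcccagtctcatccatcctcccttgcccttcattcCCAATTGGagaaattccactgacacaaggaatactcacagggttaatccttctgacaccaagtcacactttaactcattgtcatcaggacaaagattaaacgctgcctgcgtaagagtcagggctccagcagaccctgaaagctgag

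The Col4a1 and Col4a2 windows share 78 bases, since the genes run in opposite directions and the starts used for the windows lie 21 bases apart. The annotated interval of Col4a1 reaches beyond its window start of 11312826, to 11312889, and overlaps that of Col4a2 by 85 bases. The Col4a1 window held 1 CCAAT box and 1 GC box, the Col4a2 window 1 and 3. Over the 45 windows of members, the GC box was found in 53.3%, the CCAAT box in 37.8% and the TATA box in 13.3%. Over the 32851 windows of the whole table the shares were 35.7%, 37.4% and 13.6%. A match is a run of letters and not a known binding site.

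Decorin had the highest level among the members. The authors' deposited mean TPM, a level that accounts for transcript length, was 231 for Dcn in the high fat group and 82.4 in the chow group. The next levels were those of Col6a1 (65.8 and 50.9 TPM), Mgp (42.3 and 38.9), Col25a1 (38.9 and 32.9), Col9a3 (18.8 and 28.6) and Col4a2 (24.9 and 19.9). The classical fibroblast collagens were low beside these, with 4.01 and 3.69 TPM for Col1a1, 5.11 and 4.69 for Col1a2 and 1.25 and 0.988 for Col3a1. Of the 52 members, 13 reached 10 TPM in at least 1 diet and 9 stayed under 1 TPM in both.

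**Figure D1:**
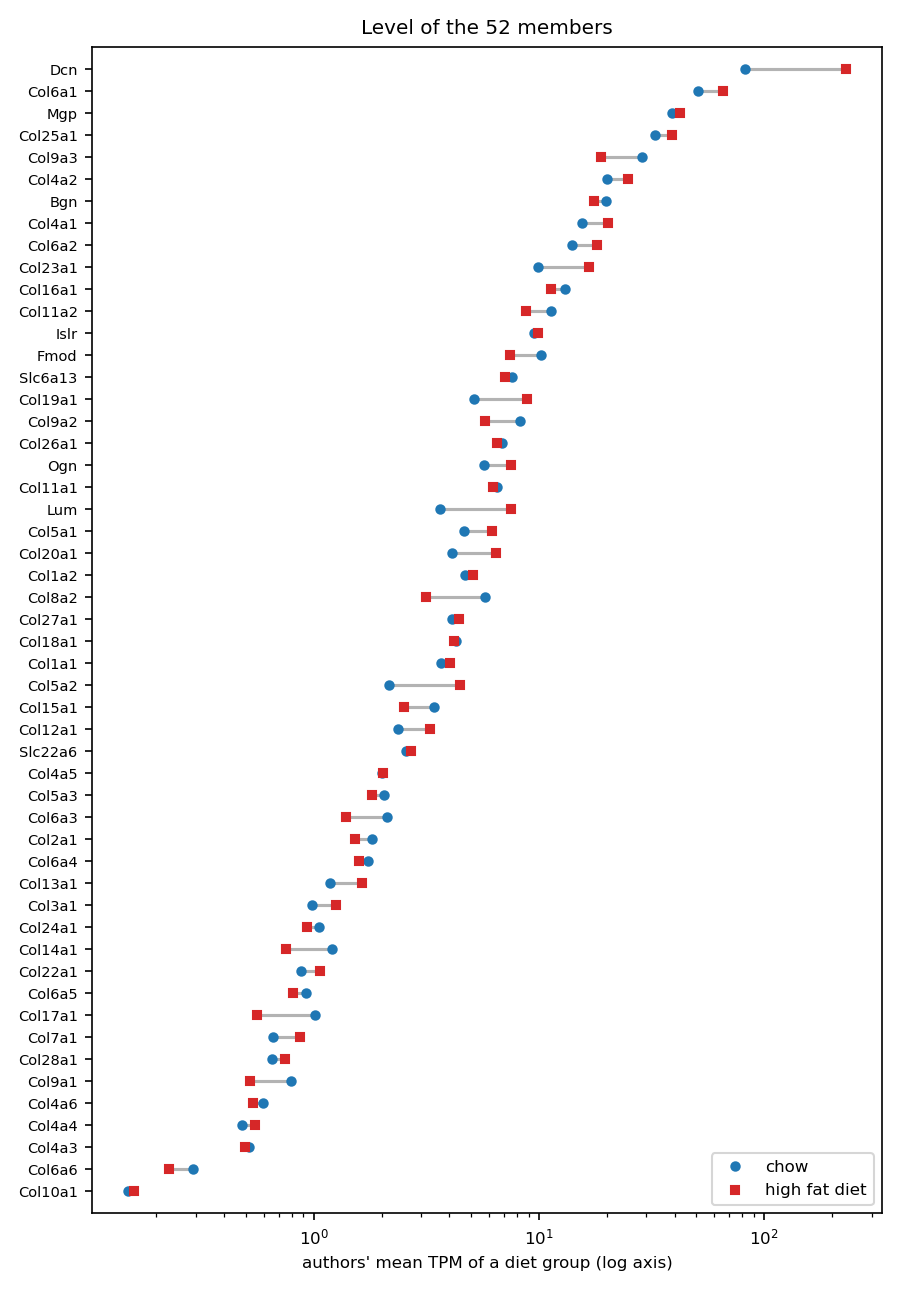
Authors' mean TPM of each diet group (log axis) for the 52 members, with 1 marker per diet and a grey line between them. Dcn stands at the top with 82.4 TPM with chow and 231 TPM with high fat diet, and Col10a1 at the bottom.

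The diet comparison asked which members differ between high fat diet and chow. None of the 51 tested members passed edgeR's quasi-likelihood test at a Benjamini-Hochberg adjusted p under 0.05, where 0% of the 15186 genes tested passed. The smallest adjusted p was 0.753 among members and over all genes. At an unadjusted p under 0.05 there was 1 member with a higher level under high fat diet, Lum (1.96% of members, beside 1.65% of all genes), and 2 with a lower level, Col14a1 and Col6a3 (3.92%, beside 2.63%). These shares are near those of all genes. DESeq2 likewise passed 0 members, with 3 at an unadjusted p under 0.05, and limma-voom passed 0, with 5. Of the 15186 genes tested, 990 and 652 were at an unadjusted p under 0.05 in these 2 tools. DESeq2 gave no p-value for Col23a1.

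The members did not lean to 1 side. Positive log2 folds (high fat diet over chow) were found in 24 and negative in 27 of the 51, with a median of -0.013, beside -0.012 over all genes tested. The spread between libraries was wide: the median SE of a member's log2 fold was 0.43, beside 0.21 over all genes tested. Within chow, the median distance from the lowest to the highest library was 1.68 on the log2 CPM scale for members and 0.81 for all genes tested. Within high fat diet it was 0.88 and 0.39. The chow distance was larger than the size of the diet fold in 49 of the 51 members. The share over all genes was not computed, so this count cannot be read as a trait of the members.

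**Figure D2:**
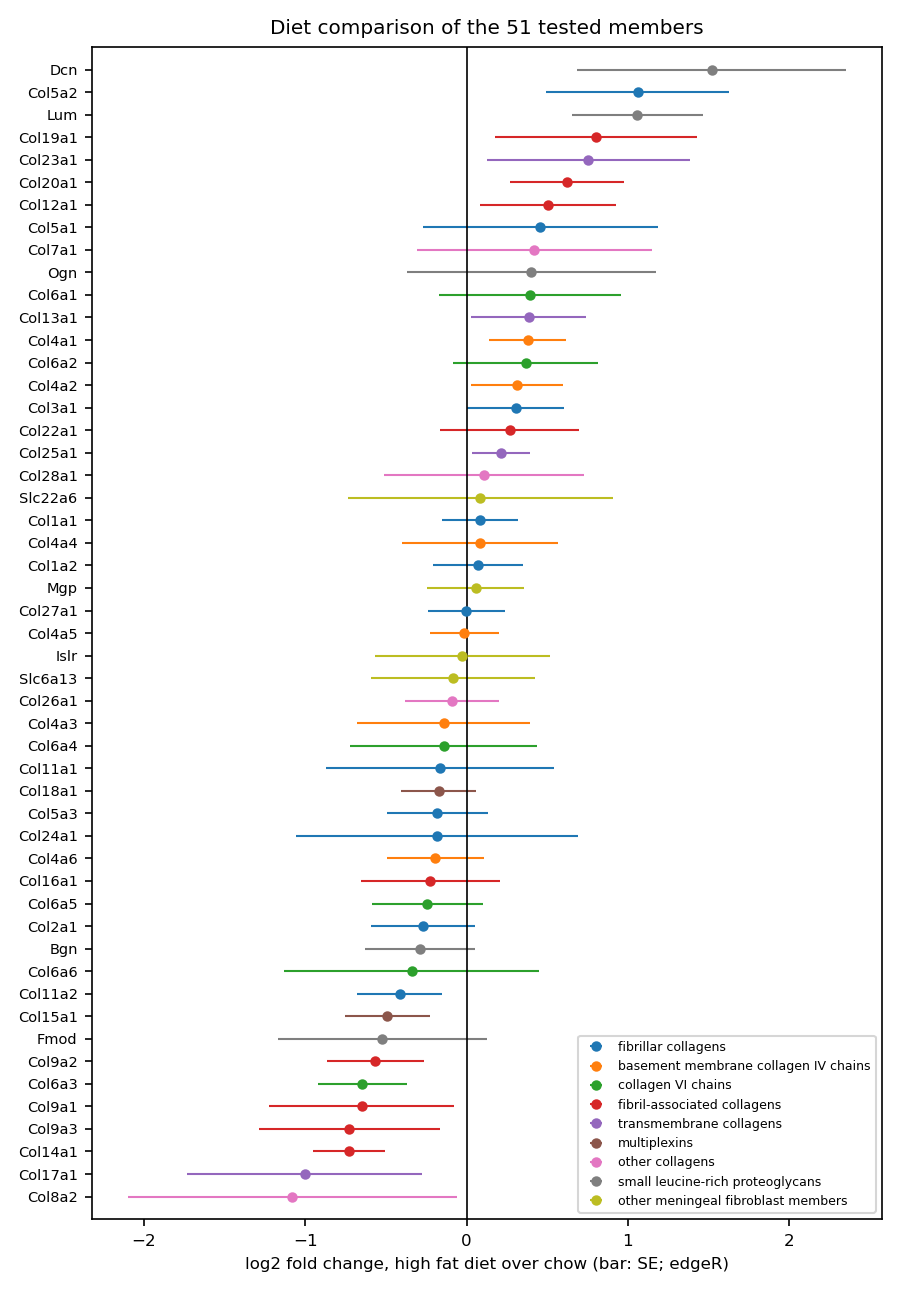
Log2 fold change of high fat diet over chow with its SE (edgeR) for the 51 tested members, coloured by role. Dcn is at the positive end with 1.52 and Col8a2 at the negative end with -1.08, both with wide error bars.

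Among the small leucine-rich proteoglycans, decorin and lumican had the largest positive folds and none of the 5 passed. Dcn (chromosome 10, 97479500 to 97518163; coordinates here and below are RefSeq, GRCm38.p6) was at 279, 104, 189 and 86.4 CPM in high fat libraries 1, 2, 5 and 8. In chow libraries 1, 2, 5 and 8 it was at 10.8, 172, 28.8 and 18.7 CPM. The high fat libraries were thus above 3 of the chow libraries, and chow library 2 lay inside the high fat range. The log2 fold of Dcn was 1.52 ± 0.83 (SE; adjusted p = 0.753 by edgeR).

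Lum, the neighbour of Dcn on chromosome 10 (97565501 to 97572703), encodes lumican, a keratan sulfate proteoglycan. It was at 6.72, 7.15, 3.70 and 6.26 CPM with high fat diet and at 1.35, 5.13, 2.13 and 2.82 CPM with chow. As for Dcn, chow library 2 overlapped the high fat libraries and the other chow libraries lay below them. The log2 fold was 1.06 ± 0.41 (SE; adjusted p = 0.753 by edgeR). The ratio of Lum to Dcn CPM differed 7.70-fold between libraries, lowest in high fat library 5 and highest in chow library 8.

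Ogn, Bgn and Fmod encode osteoglycin, biglycan and fibromodulin. Ogn was at 3.69, 7.10, 14.0 and 4.61 CPM with high fat diet and 0.931, 15.1, 3.59 and 2.65 CPM with chow, so its peaks were high fat library 5 and chow library 2, and the other chow libraries lay below the high fat ones, as for Dcn and Lum. Fmod was at 3.69, 6.93, 18.4 and 6.09 CPM and at 15.4, 25.1, 6.06 and 3.98 CPM, with the same 2 libraries and chow library 1 on top. Bgn was at 14.4 to 17.7 CPM with high fat diet and 36.9 CPM in chow library 1, beside 11.996 to 17.3 CPM in the other chow libraries. The deposited counts of Bgn were not whole in any of the 8 libraries, so its reads were shared with other genes and its level is uncertain. For each of the 3 genes the diets overlapped.

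Of the 11 fibrillar collagens, 5 had positive and 6 negative folds and 0 passed. Col1a1 (chromosome 11, 94936224 to 94953042), the α1 chain of the main fibrillar collagen, was at 7.84, 9.85, 10.1 and 9.001 CPM with high fat diet and 7.66, 12.8, 8.25 and 6.03 CPM with chow. The diets overlapped, and the log2 fold was 0.08 ± 0.24 (SE; adjusted p = 0.926 by edgeR). Col1a2, the partner chain, was at 8.56 to 13.9 CPM with high fat diet and 6.29 to 14.1 CPM with chow. Col3a1 was at 1.87 to 3.43 CPM and 1.55 to 3.20 CPM.

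The chains of collagen V, which joins collagen I fibrils and limits their width, separated chow library 2 from the other chow libraries. Col5a2 (chromosome 1, 45374331 to 45503282) was at 13.8, 10.9, 9.58 and 11.3 CPM with high fat diet and 1.24, 12.5, 3.20 and 4.86 CPM with chow. Chow libraries 1, 5 and 8 were below the high fat libraries and chow library 2 was among them, with a log2 fold of 1.06 ± 0.57 (SE; adjusted p = 0.753 by edgeR). Col5a1 was at 15.7 to 29.0 CPM with high fat diet, 42.3 CPM in chow library 2 and 3.05 to 7.96 CPM in the other chow libraries. Col5a3, the third chain, did not share this pattern, with 3.02 to 5.65 CPM and 2.85 to 7.02 CPM.

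Other fibrillar chains were higher in libraries 8 of both diets and in chow library 5. Col11a1, a minor fibrillar chain best known from cartilage, was at 6.49, 11.6, 8.05 and 29.5 CPM with high fat diet and 2.33, 10.4, 22.4 and 27.3 CPM with chow. Col24a1 was at 0.168 CPM in high fat library 1 and at 4.88, 4.38 and 4.98 CPM in high fat library 8 and chow libraries 5 and 8. Col11a2 was at 17.8, 18.7, 17.4 and 24.4 CPM with high fat diet and 17.8, 17.7, 36.2 and 32.7 CPM with chow. Col2a1, the cartilage collagen, was at 2.29, 2.86, 2.83 and 4.34 CPM and at 3.05, 2.32, 3.93 and 5.58 CPM, highest in library 8 of each diet. The log2 folds of Col11a2 and Col2a1 were -0.41 ± 0.26 and -0.27 ± 0.32 (SE; adjusted p = 0.753 and 0.826 by edgeR). Col27a1 was at 9.74 to 14.2 CPM and 7.35 to 15.2 CPM.

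**Figure D3:**
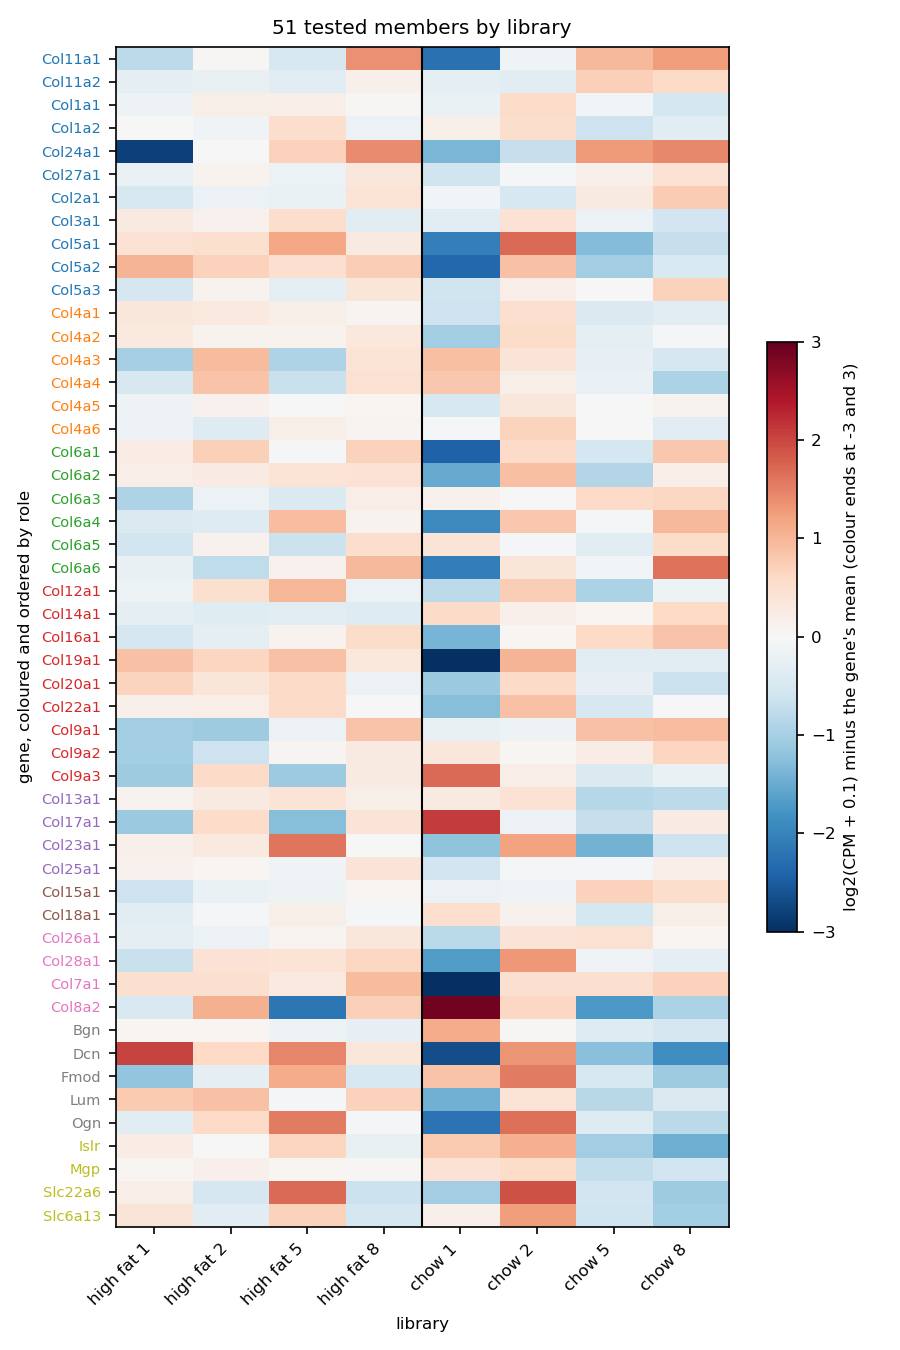
Level of the 51 tested members in the 8 libraries, as log2(CPM + 0.1) minus the gene's mean, with gene names coloured by role and a line between the diets. Chow library 1 stands out in both directions, with Col8a2 at 34.05 CPM and Dcn at 10.8 CPM.

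Of the 6 collagen IV chains 0 passed. Col4a1 (chromosome 8, 11198423 to 11312889) was at 55.8, 54.2, 50.004 and 46.4 CPM with high fat diet and 28.4, 62.9, 32.8 and 34.7 CPM with chow. Col4a2 (chromosome 8, 11312805 to 11449287), the chain that pairs with it and shares its promoter region shown above, was at 65.8, 57.7, 58.2 and 66.7 CPM and at 25.8, 78.2, 44.6 and 51.4 CPM. In both genes chow library 2 was the highest of the 8 and the other chow libraries lay below the high fat ones. Their log2 folds were 0.38 ± 0.24 and 0.31 ± 0.28 (SE; adjusted p = 0.753 and 0.784 by edgeR).

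The ratio of Col4a2 to Col4a1 CPM ranged over 1.63-fold between libraries, the smallest range of the 14 pairs of members compared. In 3 chow libraries the deposited counts of both genes were not whole while their sum was, so some reads were divided between them there. Endothelial markers, whose cells line the vessels that carry this membrane, had summed levels of 166 to 268 CPM with high fat diet and 171 to 219 CPM with chow, with 8 of 8 measured and none at 0. Their part in the values of Col4a1 and Col4a2 was not tested.

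Col4a3 and Col4a4, neighbours on chromosome 1 known from kidney basement membrane, differed between libraries of the same diet. Col4a3 was at 0.728, 3.08, 0.762 and 2.09 CPM with high fat diet and 2.95, 2.04, 1.29 and 1.05 CPM with chow. Col4a4 was at 1.18, 3.14, 1.03 and 2.36 CPM and at 3.05, 1.93, 1.46 and 0.8292 CPM. High fat library 2 and chow library 1 were highest for both. The counts of Col4a4 were not whole in any of the 8 libraries, so its level is uncertain. Col4a5 and Col4a6, which lie side by side on the X chromosome, were at 3.57 to 6.40 CPM and 1.05 to 2.26 CPM over the 8 libraries.

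Collagen VI, which forms beaded filaments near cell surfaces, was led by Col6a1 and 0 of its 6 chains passed. Col6a1 (chromosome 10, 76708792 to 76726044) was at 87.3, 124, 71.4 and 122 CPM with high fat diet and 13.8, 111, 51.4 and 131 CPM with chow. Chow library 1 was far below the others, and the log2 fold was 0.39 ± 0.56 (SE; adjusted p = 0.852 by edgeR) and 0.040 without that library. Col6a2 was also lowest in chow library 1, at 7.30 CPM beside 11.3 to 39.2 CPM elsewhere. Col6a3, which assembles with both, ran otherwise: it was at 2.91, 4.95, 4.19 and 6.53 CPM with high fat diet and 6.21, 5.74, 8.48 and 8.68 CPM with chow.

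For Col6a3 high fat library 8 reached into the chow range and the other high fat libraries lay below it, with a log2 fold of -0.65 ± 0.27 (SE; adjusted p = 0.753 by edgeR). The ratio of Col6a3 to Col6a1 CPM differed 13.5-fold between libraries, against 2.90-fold for Col6a2 to Col6a1. Col6a4, Col6a5 and Col6a6, similar chains side by side on chromosome 9, were at 0.983 to 7.91, 1.90 to 4.48 and 0.0517 to 1.88 CPM. In 2 high fat libraries reads were divided between Col6a5 and Col6a6, so their values are uncertain.

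Among the 9 fibril-associated collagens, Col14a1 was the member with the smallest p. Col14a1 (chromosome 15, 55307644 to 55520803), a fibril-bound collagen of dense connective tissue, was at 1.96, 1.82, 1.85 and 1.81 CPM with high fat diet and 3.57, 2.65, 2.47 and 3.65 CPM with chow. Each high fat library was below each chow library, and the log2 fold was -0.73 ± 0.22 (SE; adjusted p = 0.753 by edgeR). It was the 1 member of 51 with this order (1.96%), which 0.718% of all genes tested had. The opposite order, each high fat library above each chow library, was found in 0 members and in 0.645% of all genes. Its counts were low, at 33 to 69 per library.

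Col20a1 and Col19a1 resembled Dcn. Col20a1 was at 22.1, 17.7, 20.7 and 12.2 CPM with high fat diet and 6.31, 20.4, 11.7 and 8.73 CPM with chow (log2 fold 0.62 ± 0.35, SE; adjusted p = 0.753 by edgeR). Col19a1, made by neurons in mouse forebrain, was at 42.0, 35.7, 41.6 and 28.3 CPM and at 2.59, 45.9, 18.1 and 17.97 CPM (log2 fold 0.80 ± 0.63; adjusted p = 0.754 by edgeR). In both, chow library 1 was lowest, chow libraries 5 and 8 came next and chow library 2 was among the high fat libraries for Col20a1 and above them for Col19a1. Col12a1 was at 9.74, 15.2, 21.7 and 9.50 CPM and at 6.21, 18.1, 5.56 and 9.73 CPM, highest in high fat library 5 and chow library 2, with a log2 fold of 0.50 ± 0.42. Col22a1 was at 0.983 CPM in chow library 1 and 1.80 to 4.75 CPM in the others.

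The chains of collagen IX, which sits on cartilage-type fibrils, did not run together. Col9a3 (chromosome 2, 180598102 to 180622192) was at 10.5, 32.9, 10.3 and 26.3 CPM with high fat diet and 71.6, 25.3, 16.2 and 19.0 CPM with chow. Col9a2 was at 3.47, 4.57, 7.51 and 8.62 CPM and at 9.06, 7.40, 8.25 and 11.1 CPM. Their ratio differed 5.77-fold between libraries, and the counts of Col9a3 were not whole in any of the 8, so its level is uncertain. Col9a1 was at 0.280, 0.275, 0.599 and 1.32 CPM with high fat diet and 0.569, 0.607, 1.35 and 1.38 CPM with chow. The log2 folds of Col9a1, Col9a2 and Col9a3 were -0.65 ± 0.57, -0.56 ± 0.30 and -0.73 ± 0.56 (SE), with adjusted p from 0.753 to 0.773 by edgeR. Without chow library 1, its highest, the fold of Col9a3 was -0.020. Col16a1 was at 15.9, 18.4, 24.3 and 32.9 CPM with high fat diet and 8.54, 23.5, 33.97 and 41.0 CPM with chow, highest in libraries 8 and chow library 5.

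**Figure D4:**
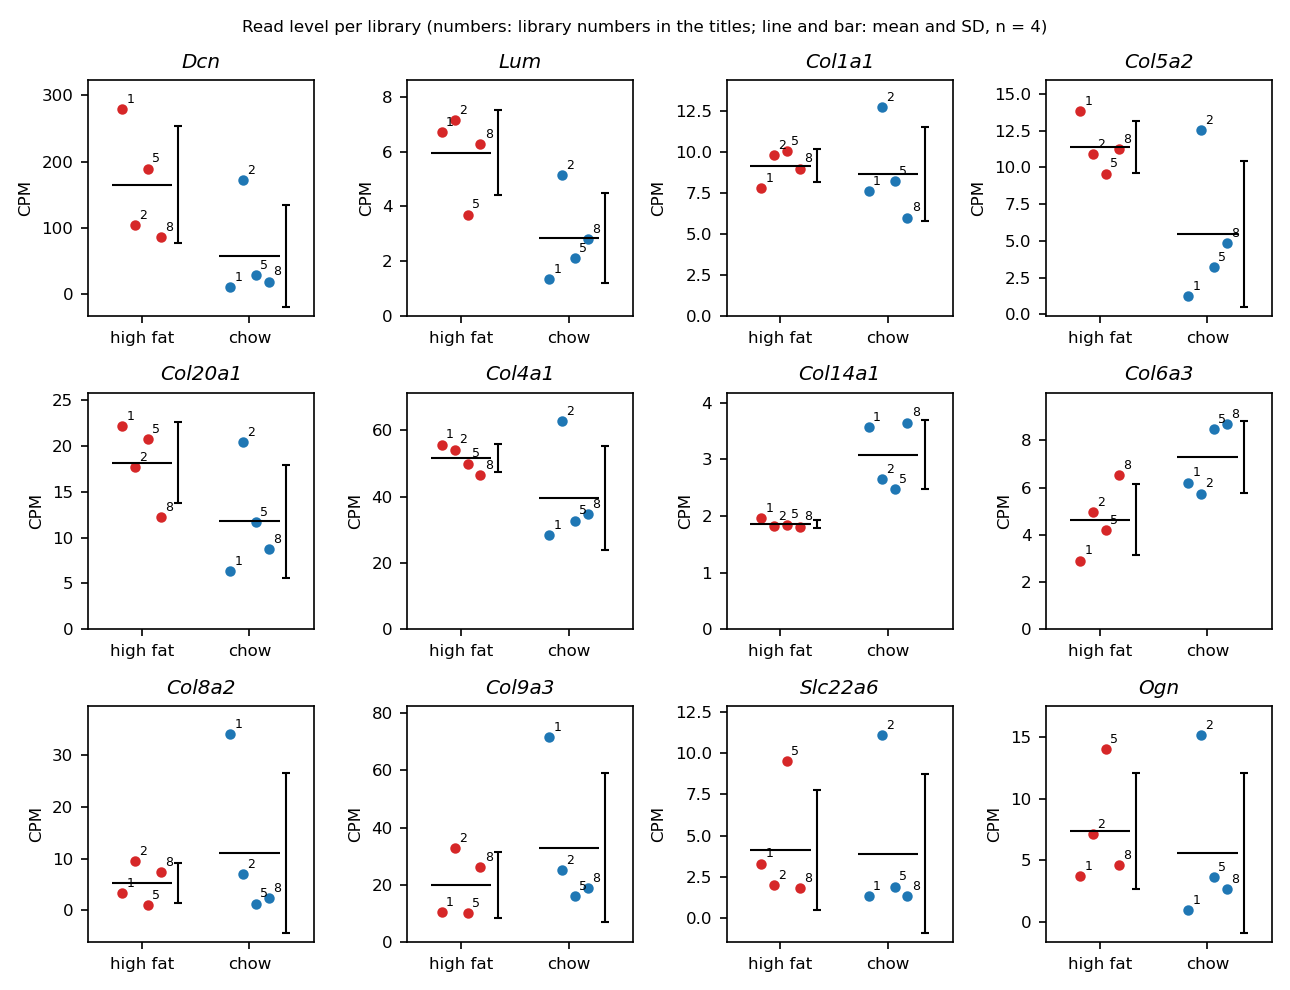
CPM of 12 members in each library, marked by the library number, with the mean and SD of each diet (n = 4). Chow library 2 lies with the high fat libraries for Dcn, Lum, Col5a2 and Col20a1 and above them for Col4a1, Col14a1 alone has no overlap, and Col8a2 and Col9a3 have their highest point in chow library 1.

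Of the 4 transmembrane collagens 0 passed, and Col25a1 had the highest level. This neuronal collagen, first found in amyloid plaques, was at 114, 108, 95.7 and 135 CPM with high fat diet and 70.2, 101, 99.3 and 119 CPM with chow, with a log2 fold of 0.22 ± 0.18 (SE; adjusted p = 0.762 by edgeR). Col23a1 was at 25.1, 27.5, 68.2 and 22.5 CPM and at 9.68, 52.4, 8.31 and 14.6 CPM, with peaks in high fat library 5 and chow library 2 and a log2 fold of 0.75 ± 0.63. Col17a1, a collagen of hemidesmosomes, was at 0.560, 1.98, 0.490 and 1.76 CPM and at 6.05, 1.16, 0.786 and 1.603 CPM. Without chow library 1, its highest, the log2 fold of -1.004 became 0.011. Col13a1 was at 1.85 to 2.29 CPM with high fat diet and 0.898 to 2.32 CPM with chow.

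The multiplexins Col15a1 and Col18a1 of vessel basement membranes had negative folds that did not pass. Col15a1 was at 3.58, 4.90, 5.01 and 5.87 CPM with high fat diet and 4.92, 5.08, 9.10 and 8.13 CPM with chow (log2 fold -0.49 ± 0.27, SE; adjusted p = 0.753 by edgeR). Chow libraries 5 and 8 set the difference, and chow libraries 1 and 2 lay in the high fat range. Col18a1, the source of endostatin, was at 6.77 to 9.74 CPM and 5.95 to 12.2 CPM.

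Col8a2 had the widest range of the members that had more than 3 counts in each library, 36.8-fold. This short-chain collagen of the corneal basement membrane (chromosome 4, 126286794 to 126314330) was at 3.25, 9.52, 0.925 and 7.41 CPM with high fat diet and 34.05, 6.96, 1.29 and 2.27 CPM with chow. Chow library 1 was far above the others, and its removal turned the log2 fold from -1.08 ± 1.02 (SE; adjusted p = 0.790 by edgeR) to 0.59. Col7a1, of the anchoring fibrils of skin, had 1 count in chow library 1 and was at 2.56 to 4.06 CPM in the other libraries. Col26a1 and Col28a1 were at 3.83 to 9.38 and 0.259 to 2.71 CPM.

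The remaining meningeal fibroblast genes differed mostly between libraries of the same diet. Slc22a6, an organic anion transporter, was at 3.3025, 1.98, 9.52 and 1.81 CPM with high fat diet and 1.35, 11.1, 1.91 and 1.33 CPM with chow. Slc6a13, a GABA and taurine transporter of the meninges, was at 6.605, 3.96, 8.16 and 3.46 CPM and at 5.59, 12.2, 3.31 and 2.43 CPM. High fat library 5 and chow library 2 were the highest of their diets for both. Islr, a mesenchymal leucine-rich repeat protein, was at 5.93 to 10.9 CPM with high fat diet and at 12.1, 14.8, 3.31 and 2.49 CPM with chow.

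Mgp, matrix Gla protein, an inhibitor of calcification, was the steadiest of these with high fat diet, at 9.24, 9.85, 9.25 and 9.11 CPM. With chow it was at 11.9, 12.9, 5.33 and 5.86 CPM, above the high fat range in libraries 1 and 2 and below it in libraries 5 and 8. Its log2 fold was 0.06 ± 0.30 (SE; adjusted p = 0.961 by edgeR), and it became negative without chow library 5 or 8, at -0.13 and -0.10. In the 11 genes taken as the fibroblast core (Col1a1, Col1a2, Col3a1, Dcn, Lum, Ogn, Fmod, Islr, Mgp, Slc6a13 and Slc22a6), 8 folds were positive, 3 negative and 0 passed. Their median log2 fold was 0.083, and it was -0.11, -0.094 and -0.056 without high fat library 5, chow library 5 and chow library 8. Without chow library 2 it was 0.55, and with quality weights in limma-voom 0.64. The name fibroblast core is a label of the list, and the cells that made these RNAs were not measured. Within it, Dcn had a Pearson r of 0.63 with Col1a1 and of 0.90 with the neuronal gene Slc17a7, as given below.

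Across the 51 tested members, chow library 1 was the lowest of the 8 libraries for 23 and the highest for 5. Chow library 2 was the highest for 18 and the lowest for 0, and chow library 8 was the highest for 13 and the lowest for 7. Each high fat library was the highest for 3. In 45 of the 51 members the 4 chow libraries spanned more than the 4 high fat ones on the log2 CPM scale. Over all genes tested the median span was likewise wider in chow, at 0.81 beside 0.39. The counts in this paragraph were not made for all genes, so they cannot be read as a trait of the members.

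The markers given for the set, Dcn, Lum and Col1a1, had counts in each library. The ratio of Dcn to Col1a1 CPM was between 1.41 and 35.6, a 25.3-fold range. Their log2 CPM values over the 8 libraries had a Pearson r of 0.63 and a Spearman rho of 0.60, and r was 0.26 without the 2 libraries farthest from the median of Dcn and 0.48 without the 2 farthest from that of Col1a1. Dcn and Lum were closer to each other, with r = 0.84, rho = 0.69 and r = 0.65 without the 2 libraries farthest from the median of Dcn. The correlations here and below are descriptions over 8 libraries that share 1 scaling, with no p-value.

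The 5 members most like Dcn by Pearson r were Col20a1 (0.97), Col4a1 (0.94), Col5a2 (0.91), Col5a1 (0.90) and Col19a1 (0.87). Their Spearman rho values were 1.00, 0.86, 0.81, 0.81 and 0.93, and r without the 2 libraries farthest from the median of Dcn was 0.90, 0.87, 0.88, 0.82 and 0.95. The 5 least like Dcn were Col14a1 (-0.79), Col6a3 (-0.77), Col17a1 (-0.70), Col9a2 (-0.69) and Col2a1 (-0.64). Among these, r without the 2 farthest libraries was -0.29, -0.89, -0.29, -0.55 and -0.79, so the values of Col14a1 and Col17a1 rested on those libraries.

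Markers of neighbouring tissue moved with several members. Slc17a7, which loads glutamate into synaptic vesicles of excitatory neurons of the cortex and basolateral amygdala, had r = 0.90 with Dcn (rho 0.86, and r 0.94 without the 2 libraries farthest from the median of Slc17a7). The 6 pallial excitatory markers, none at 0, had summed levels of 703 to 2082 CPM with high fat diet and 114 to 1564 CPM with chow. Ttr, transthyretin of choroid plexus, had r = 0.95 with Col8a2 (rho 0.95, and 0.94 without the 2 libraries farthest from the median of Ttr) and -0.09 with Dcn. The 9 choroid plexus markers, none at 0, had summed levels of 233 to 3180 CPM and 111 to 6696 CPM, with the highest in chow library 1. The part of these tissues in the values of the members was not tested.

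**Figure D5:**
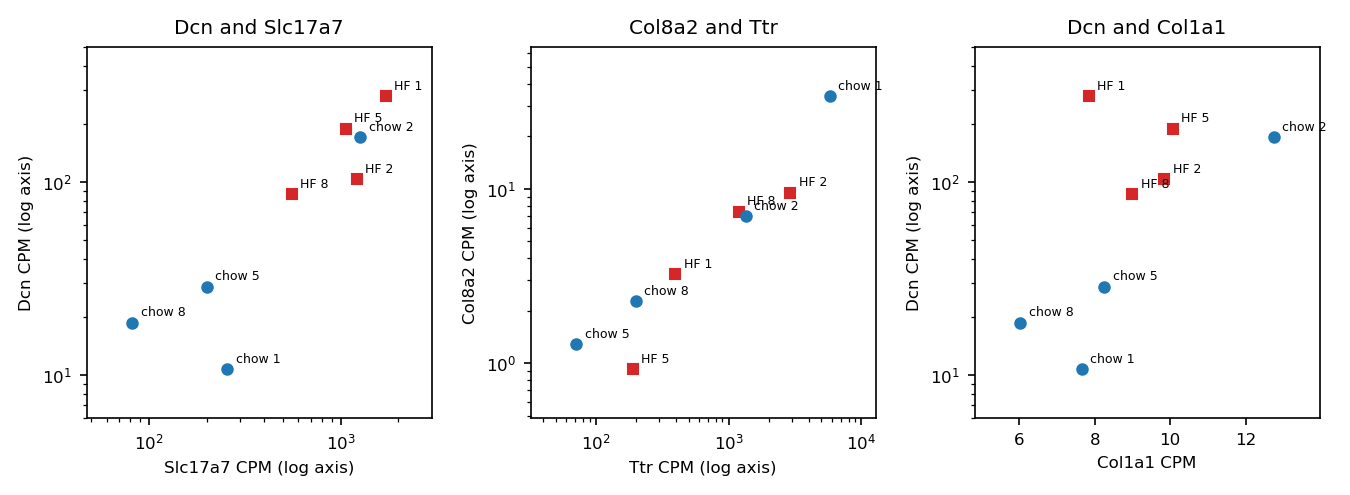
CPM of Dcn against Slc17a7, Col8a2 against Ttr and Dcn against Col1a1, with 1 point per library (squares high fat diet, circles chow; log axes except for Col1a1). Points rise together in the first and second panels, and in the third Dcn spans 10.8 to 279 CPM while Col1a1 spans 6.03 to 12.8 CPM.

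Other genes of the pathway also gave 0 passes. Of the 27 tested genes of collagen processing, such as prolyl and lysyl hydroxylases and lysyl oxidases, 13 folds were positive and 14 negative with a median log2 fold of -0.0089. Those with the smallest p were Pcolce2, a procollagen proteinase enhancer (-0.81 ± 0.36), P4ha3, a prolyl hydroxylase (-0.68 ± 0.31), and Adamts14, a procollagen proteinase (1.501 ± 0.73, SE). Of 8 collagen receptors, 2 folds were positive and 6 negative, with Ddr1 at -0.67 ± 0.32 and Ddr2, both discoidin domain receptors, at 0.70 ± 0.43. Of 7 collagenases and their inhibitors, 2 were positive and 5 negative, with Timp3 at -0.26 ± 0.14.

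Other small leucine-rich proteoglycans (9 tested) had 5 positive and 4 negative folds, with Ecm2 and Podn at 0.64 ± 0.35 and 0.88 ± 0.49 (SE). Laminins and other basement membrane proteins (13 tested) had 5 positive and 8 negative, with Lamb1, a laminin chain, at 0.51 ± 0.24. Further meningeal fibroblast genes (12 tested) had 4 positive and 8 negative, with Fbln1, a matrix fibulin, at 0.53 ± 0.40. TGF-beta ligands, receptors and targets (13 tested) had 6 positive and 7 negative. In that list Tgfb2, a ligand, was at 71.3, 48.9, 29.6 and 31.8 CPM with high fat diet and 24.9, 38.5, 13.6 and 15.8 CPM with chow (log2 fold 0.97 ± 0.39; adjusted p = 0.753 by edgeR).

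Leaving out 1 library turned the fold or moved it by over 1.5 times in 20 of the 23 members given with folds, and did not for Lum, Col14a1 and Col6a3. Small folds such as those of Col1a1 and Mgp move by such a ratio easily. The share over all genes was not computed, so this count cannot be read as a trait of the members. Without chow library 2, edgeR passed 116 of 15303 genes (0.758%) and 1 of 51 members (1.96%), Dcn, with a log2 fold of 3.09 and adjusted p = 0.0481. In chow libraries 1, 5 and 8 the pallial excitatory markers summed to 308, 232 and 114 CPM, below the 703 to 2082 CPM of the high fat libraries. Their oligodendrocyte markers summed to 11738, 12403 and 8595 CPM, above the 2526 to 5605 CPM there. Chow library 2 was at 1564 and 1967 CPM. Without chow library 2, diet and tissue make-up thus cannot be told apart. With it, these markers leaned the same way without passing, as given above. Without chow library 2, Lum and Col5a2 had log2 folds of 1.504 and 1.88 with adjusted p = 0.0711 and 0.0668 by edgeR. The number of members at an unadjusted p under 0.05 went from 3 to 15, 13 higher and 2 lower. Over all genes tested it also rose, from 649 of 15186 to 2972 of 15303. Without each of the other 7 libraries in turn, edgeR passed 0 members, with 1 to 4 members and 131 to 888 of all genes at an unadjusted p under 0.05. In a setting chosen once the data had been seen, with neither chow library 5 nor chow library 8, the log2 folds of Dcn and Lum were 0.85 and 0.88 and 0 members passed.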

How the data were processed

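Single-end mRNA reads of 8 central amygdala libraries were analysed from the authors' table of estimated counts per gene. Per the file headers, the values are expected counts, of which 35.2% differed from a whole number by over 1e-06, and the table also holds the authors' mean FPKM and mean TPM per diet. The deposited FPKM values were not used further. The deposited TPM means are printed with no SD. Per the submitters' processing notes, the tools were Bowtie2 2.2.5 and RSEM 1.2.8 with mm10, of which GRCm38.p6 is a patch. The annotation and whether counting used strand are not named in the labels.

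Expected counts were rounded, filtered by filterByExpr (15186 of 18983 genes) and scaled by TMM. High fat diet was set against chow by the two-sided quasi-likelihood test of edgeR 4.0.16 (R 4.3.3), with no covariate and Benjamini-Hochberg adjustment over all genes tested. The SE is the log2 fold divided by the root of F. CPM uses TMM-scaled totals, and log2 CPM a prior count of 2. The biological coefficient of variation was 29.3%. Of the 52 members, 52 matched RefSeq coordinates, and 11 had values that were not whole. Among these were Bgn, Col4a4, Col9a3, Col22a1 and Col26a1 in all 8 libraries and Col5a1 in 6, so their levels are uncertain. The tests were tested on simulated data.

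The members, lists and tests were chosen with earlier results of these data known. Values in every library are given for Dcn, Lum and Col1a1, the 6 members with the highest TPM and the 10 with the smallest p in each direction, of related lists up to 3 genes are named, and the 5 members most and least like Dcn are given. Other members, and the markers Slc17a7 and Ttr, were chosen after their values were seen. Alternatives were RLE and upper-quartile factors, other filters, the title number as a block, each library left out, DESeq2 1.42.0, limma-voom (limma 3.58.1) with and without quality weights, and an adjusted p under 0.1.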

Additional observations from a re-analysis of the deposited data

Results flagged for a closer look

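In 102 groups of 4 libraries (51 tested members in 2 diets), 8 held a library that stood apart from the other 3 by Dixon's gap-to-range test at its 95% critical value, where chance alone gives about 1 in 20 groups. Of the 8, 4 were high values of chow library 2: Dcn at 172 CPM, Col5a1 at 42.3 CPM, Col23a1 at 52.4 CPM and Slc22a6 at 11.1 CPM. Chow library 1 gave 3, with high values of Col9a3 at 71.6 CPM and Col17a1 at 6.05 CPM and a low value of Col7a1 at 0.0517 CPM. The last was high fat library 5, with Col23a1 at 68.2 CPM.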

How the results depend on the processing

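The count of members past the threshold was 0 in the main comparison and 0 with RLE or upper-quartile factors, either other filter, the block, DESeq2, limma-voom with or without quality weights, an adjusted p under 0.1 in edgeR, and chow libraries 5 and 8 left out together. Quality weights stood apart: 22 members (14 higher, 8 lower) and 4492 genes had an unadjusted p under 0.05, beside 3 and 649 in edgeR, and the smallest adjusted p of a member was 0.0675. At an adjusted p under 0.1, a combination added after seeing the data, they passed 17 members (10 higher, 7 lower) and 2775 of 15186 genes (18.3%). With 1 library left out the count of all genes past the threshold ran from 0 to 116 and that of members from 0 to 1, the upper value in each case without chow library 2. Of the named members, Dcn alone passed, in that setting. The sign of a named fold turned in 13 cases. Without chow library 1 the log2 folds of Col17a1 and Col8a2 turned to 0.011 and 0.59, within leave-one-out ranges of -1.37 to 0.011 and -1.54 to 0.59. Leave-one-out ranges were -0.13 to 0.28 for Mgp and -0.056 to 0.33 for Col1a1. With quality weights in limma-voom Col25a1, Col9a3 and Col8a2 turned to -0.0037, 0.12 and 1.01. With chow libraries 5 and 8 left out, a setting added after seeing the data, Col1a1, Mgp, Col11a2, Col9a1 and Col2a1 turned to -0.15, -0.41, 0.14, 0.072 and 0.20. The cause was not tested. The median fold of members ran from -0.084 to 0.34 over the settings.

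The title number as a replicate block passed 0 genes and 0 members, with a median log2 fold of 0.083 for members and 0.30 for the fibroblast core, and 572 genes at an unadjusted p under 0.05 beside 649 without it. Deviations of same-numbered libraries from their diet means correlated at 0.013, -0.043, 0.035 and 0.39 for numbers 1, 2, 5 and 8 over 15186 genes. Number 8 stood apart from the others. The labels state no pairing, so the main comparison took the libraries to share only a number. Whether the libraries numbered 8 share more was not tested. Depth limits the low members, among which Col10a1, Col6a6, Col7a1 and Col24a1 had 3 counts or fewer in a library.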
